A study of Mus musculus with 40 samples.

Results

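Guanylate-binding proteins (GBP) and immunity-related GTPases (IRG) are 2 families of proteins that bind guanine nucleotides and are made in quantity when a cell senses interferon. A set of 10 of their mouse genes was followed through 40 Affymetrix arrays of CD4 T cells: the GBP genes Gbp2, Gbp3, Gbp6, Gbp7, Gbp8 and Gbp9, and the IRG genes Igtp, Irgm1, Irgm2 and Iigp1. The probe set of a gene was chosen by its mean signal, the highest over all arrays of its array type among those that carry the gene's name alone. That choice used no difference between groups, but the genes themselves were picked with earlier results of these arrays known, so their counts below are descriptions of these samples and not independent evidence. In the experiment on sorted cells 9 of the 10 were measured, among 18194 genes in all, and in the experiment with semaphorin-4a 8 of the 10 were measured, among 17097 genes. Gbp9 had no probe set of its own on either array type. Gbp6 was measured on sorted cells only: its 2 probe sets there carry the name of its neighbour Gbp10 on the other array type, so the signal called Gbp6 here may come from either gene.

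The sorted-cell experiment compared 3 groups of C57Bl/6 mouse cells that carried a Foxp3GFP reporter, which marks regulatory T cells (Treg) by their lineage factor Foxp3. Activated Treg (3 arrays) and resting Treg (3 arrays) were CD4+ CD45RBlow GFP+ cells kept in culture for 48 h, with antibodies against CD3 and CD28 or without them. Resting conventional T cells (Tconv, 2 arrays) were CD4+ CD45RBhi GFP- cells cultured unstimulated for as long, so the Treg and Tconv gates differ in CD45RB as well as in Foxp3. The ligand experiment used CD4+ CD45RBlo YFP+ Treg from spleen and lymph nodes of C57Bl/6 mice whose Foxp3 locus drives a Cre recombinase (Foxp3-YFP-iCre), with Nrp fl/fl (KO) or without it (WT). Loss of Nrp1, the gene of the receptor neuropilin-1, in KO therefore depends on that Cre and on Foxp3-expressing cells. All of these cells received plate-bound anti-CD3 at 1 µg/mL, dissolved anti-CD28 at 2 µg/mL and interleukin-2 at 100 U/mL, and on the plate either Sema4a-Ig, a fusion protein of semaphorin-4a, or mouse IgG1 at 10 µg/mL, with 8 arrays for each of Sema4a-Ig in KO, IgG1 in KO, Sema4a-Ig in WT and IgG1 in WT. Mouse ages are not given in the labels, and nothing in them ties replicates to separate animals or cultures. The p-values thus reflect only how much these samples spread, and that spread may be technical.

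Interferon gamma binds its receptor on the cell surface, the receptor's kinases switch on transcription factors, and these bind short elements in promoters of the GBP and IRG genes. In mouse cells GBPs and effector IRGs gather on the vacuoles in which parasites such as Toxoplasma live, while a group of regulatory IRGs, named Irgm proteins, keeps the effectors off the cell's own membranes. Both families are known best from macrophages and fibroblasts, and T cells express many of the same genes. The files pair Gbp2, Gbp3 and Gbp7 with the cluster on chromosome 3, Gbp6, Gbp8 and Gbp9 with a cluster on chromosome 5, and Igtp, Irgm1 and Irgm2 with chromosome 11 (RefSeq, GRCm38.p6), while Iigp1 lies apart from all of them.

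The promoters of 4 of the members that rose with Sema4a-Ig in WT cells are shown. Of these, 3 hold 2 kinds of interferon element, and that of Gbp3 holds 1 kind. Gbp2 rose as well and is not shown, and its window also holds only 1 kind, the ISRE-like one described below. Each line gives the 250 bases before the annotated start of transcription from RefSeq (GRCm38.p6), 5′ to 3′ on the coding strand, with matches in capitals.
Gbp3 (chr3:142559794-142560043, plus strand): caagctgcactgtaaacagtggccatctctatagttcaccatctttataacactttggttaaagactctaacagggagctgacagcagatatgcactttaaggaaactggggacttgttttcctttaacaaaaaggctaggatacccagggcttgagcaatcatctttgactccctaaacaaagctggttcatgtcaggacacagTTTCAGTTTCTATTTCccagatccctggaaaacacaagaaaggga
Gbp7 (chr3:142530086-142530335, plus strand): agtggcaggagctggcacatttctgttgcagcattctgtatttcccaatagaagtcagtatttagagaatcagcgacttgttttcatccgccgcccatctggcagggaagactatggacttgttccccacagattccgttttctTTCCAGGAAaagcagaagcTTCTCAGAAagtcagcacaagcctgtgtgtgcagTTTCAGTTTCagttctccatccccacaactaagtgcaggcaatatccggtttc
Igtp (chr11:58199306-58199555, plus strand): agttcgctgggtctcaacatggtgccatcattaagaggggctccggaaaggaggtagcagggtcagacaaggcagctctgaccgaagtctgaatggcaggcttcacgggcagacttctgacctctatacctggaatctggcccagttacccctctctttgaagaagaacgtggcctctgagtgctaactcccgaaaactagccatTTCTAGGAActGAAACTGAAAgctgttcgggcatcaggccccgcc
Irgm2 (chr11:58214727-58214976, plus strand): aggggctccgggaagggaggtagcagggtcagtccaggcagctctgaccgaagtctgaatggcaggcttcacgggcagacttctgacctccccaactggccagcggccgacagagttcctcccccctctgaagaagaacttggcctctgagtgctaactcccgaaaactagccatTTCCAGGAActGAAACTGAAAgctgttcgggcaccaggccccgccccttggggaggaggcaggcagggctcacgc
The capitals mark 2 patterns searched for on both strands. The ISRE-like pattern is GAAA, then any 2 bases, then GAAA, or TTTC, any 2 bases and TTTC on the other strand. It is the core of the element bound by interferon regulatory factors. The GAS pattern TTCNNNGAA, the same on both strands, is that of the element bound by the factors that the interferon gamma receptor activates. RefSeq windows were used for 6 of the 10 members (Gbp2, Gbp3, Gbp7, Igtp, Irgm1 and Irgm2). They are 7 windows in all because Gbp3 has 2 annotated starts. No window was at hand for Gbp6, Gbp8 or Gbp9. Iigp1 was left out of the search by choice, so the counts that follow do not cover it. The ISRE-like pattern was present in 6 of these 7 windows, and in 2.98% of 32851 promoter windows of the same length. The GAS pattern was present in 3 of the 7, those of Gbp7, Igtp and Irgm2, and in 7.02% of all windows, and both patterns together in 0.332% of all windows.

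In Igtp the GAS match began 45 bases before the start and the ISRE-like match 34 bases before it. In Irgm2 they began 75 and 64 bases before the start, so the spacing was 11 bases in both, and the 2 windows shared an unbroken run of 55 bases. Gbp7 carried 2 GAS matches, beginning 106 and 87 bases before its start, and an ISRE-like match 53 bases before it. In Gbp3 the ISRE-like matches, beginning 45 and 39 bases before the first start, overlap each other, and the second start of Gbp3 had neither pattern in its window. A match describes letters in a window and says nothing of binding in these cells.

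**Figure D1:**
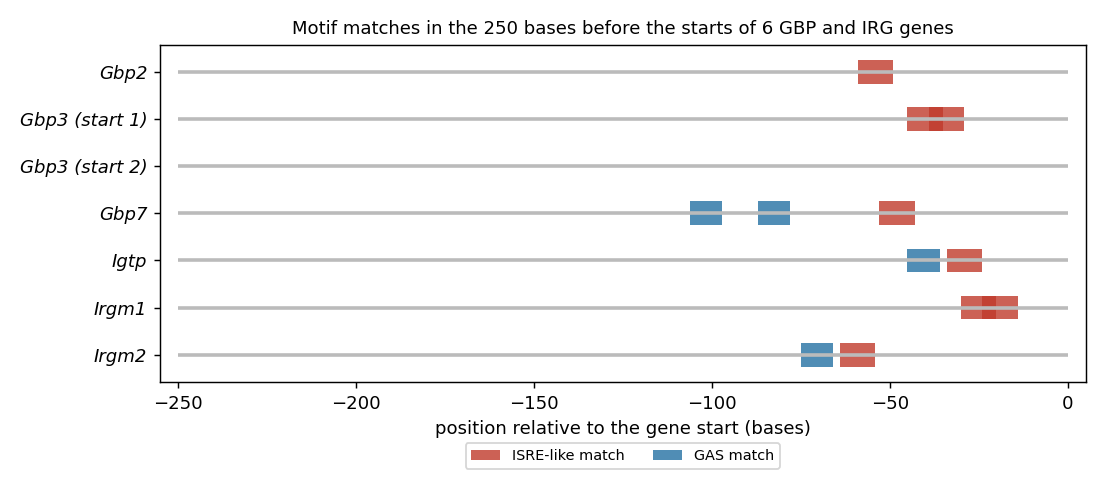
Positions of ISRE-like (red) and GAS (blue) matches in the 250 bases before the start of transcription of 6 GBP and IRG genes, in bases relative to the start. The ISRE-like match lies within 64 bases of the start in every window that has one, and GAS matches are seen in Gbp7, Igtp and Irgm2.

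Resting Treg were compared with resting Tconv to ask how the 2 lineages differ without stimulation. Resting Treg carried far more RNA of Gbp3 and more of Iigp1, Gbp6 and Gbp7, while the 3 IRG genes of chromosome 11 did not pass the test. With limma, 4 of the 9 measured members were higher in resting Treg at an adjusted p under 0.05, where 3.86% of all genes were higher and 5.51% differed in either direction. The median difference of the members was 0.78 on the log2 scale, against 0.0073 for all genes. All levels are log2 signals, and a difference of 1 is a doubling.

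Gbp3 had log2 signals of 10.16, 10.61 and 10.60 in resting Treg, against 7.09 and 6.95 in resting Tconv. The lowest Treg array was far above both Tconv arrays. The difference was 3.44 ± 0.23 (log2, SE), or 10.8-fold, with a limma adjusted p of 0.000148, and Gbp3 ranked 83 of 18194 genes by the size of its difference. Mice that lack the chromosome 3 GBP cluster, which holds Gbp2, Gbp3 and Gbp7, control Toxoplasma poorly.

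Gbp7, which lies in that cluster and takes part in defence against Toxoplasma in mice, had 11.62, 11.55 and 11.59 in resting Treg and 10.29 and 10.37 in resting Tconv. The groups did not overlap, and the difference was 1.26 ± 0.21 (log2, SE; limma adjusted p 0.0106). A second probe set of Gbp7 gave 1.06. Gbp2, a protein that coats the vacuole of Toxoplasma in mouse cells, had 9.36, 9.97 and 9.75 in resting Treg and 8.66 and 9.16 in resting Tconv. These groups did not overlap either, but the difference of 0.78 ± 0.27 (log2, SE) did not pass the test (adjusted p 0.168). A second probe set of Gbp2, with a lower mean signal, gave a difference of 0.18, so the Gbp2 value depends on the probe set.

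On chromosome 5, the signal called Gbp6 was 9.19, 9.01 and 8.97 in resting Treg and 7.53 and 7.87 in resting Tconv. Each Treg array was above each Tconv array, with a difference of 1.36 ± 0.18 (log2, SE; limma adjusted p 0.00405). The other probe set named Gbp6 gave a smaller difference of 0.84. Gbp8 had 10.84, 10.96 and 10.94 in resting Treg and 10.54 and 10.58 in resting Tconv, a non-overlapping but small difference of 0.35 that did not pass (adjusted p 0.335).

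Iigp1 (Irga6), an effector IRG that loads onto the vacuole of Toxoplasma in mouse cells, had 9.32, 8.23 and 8.29 in resting Treg and 6.10 and 6.61 in resting Tconv. Resting Treg array 1 was about 1 log2 unit above the other 2, and all 3 were above Tconv. The difference was 2.26 ± 0.34 (log2, SE; limma adjusted p 0.00729). A second probe set of Iigp1, with a lower mean signal, gave 1.24, so the size depends on the probe set.

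The regulatory IRGs gave another picture. Igtp (Irgm3) had 11.29, 11.95 and 11.69 in resting Treg and 11.97 and 12.07 in resting Tconv, each Treg array below each Tconv array. Its difference of -0.37 had a 95% interval of -1.02 to 0.27 and did not pass (adjusted p 0.579). Irgm1 had 8.23, 9.30 and 9.21 in resting Treg and 9.10 and 9.22 in resting Tconv, so that the groups overlapped. Irgm2 had 9.88, 10.32 and 9.92 in resting Treg and 9.65 and 9.78 in resting Tconv. The differences of Irgm1 (-0.25, interval -1.01 to 0.51) and Irgm2 (0.33, interval -0.24 to 0.89) leave room for changes of either sign. Over the 9 members, 7 had every resting Treg array above both Tconv arrays, against 21.6% of all genes, and Igtp had every one below, against 20.4% of all genes.

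The count rests on 2 Tconv arrays. How many of all genes passed with either left out is not given here, so lost calls are not shown to be particular to the members. Without Tconv array 1 only Gbp3 passed, while Gbp6 (1.19, adjusted p 0.0805), Gbp7 (1.22, adjusted p 0.144) and Iigp1 (2.00, adjusted p 0.109) kept their sign, and without Tconv array 2 Gbp7 (1.30, adjusted p 0.0972) did not pass; the lone array was then assumed to vary like the other groups.

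**Figure D2:**
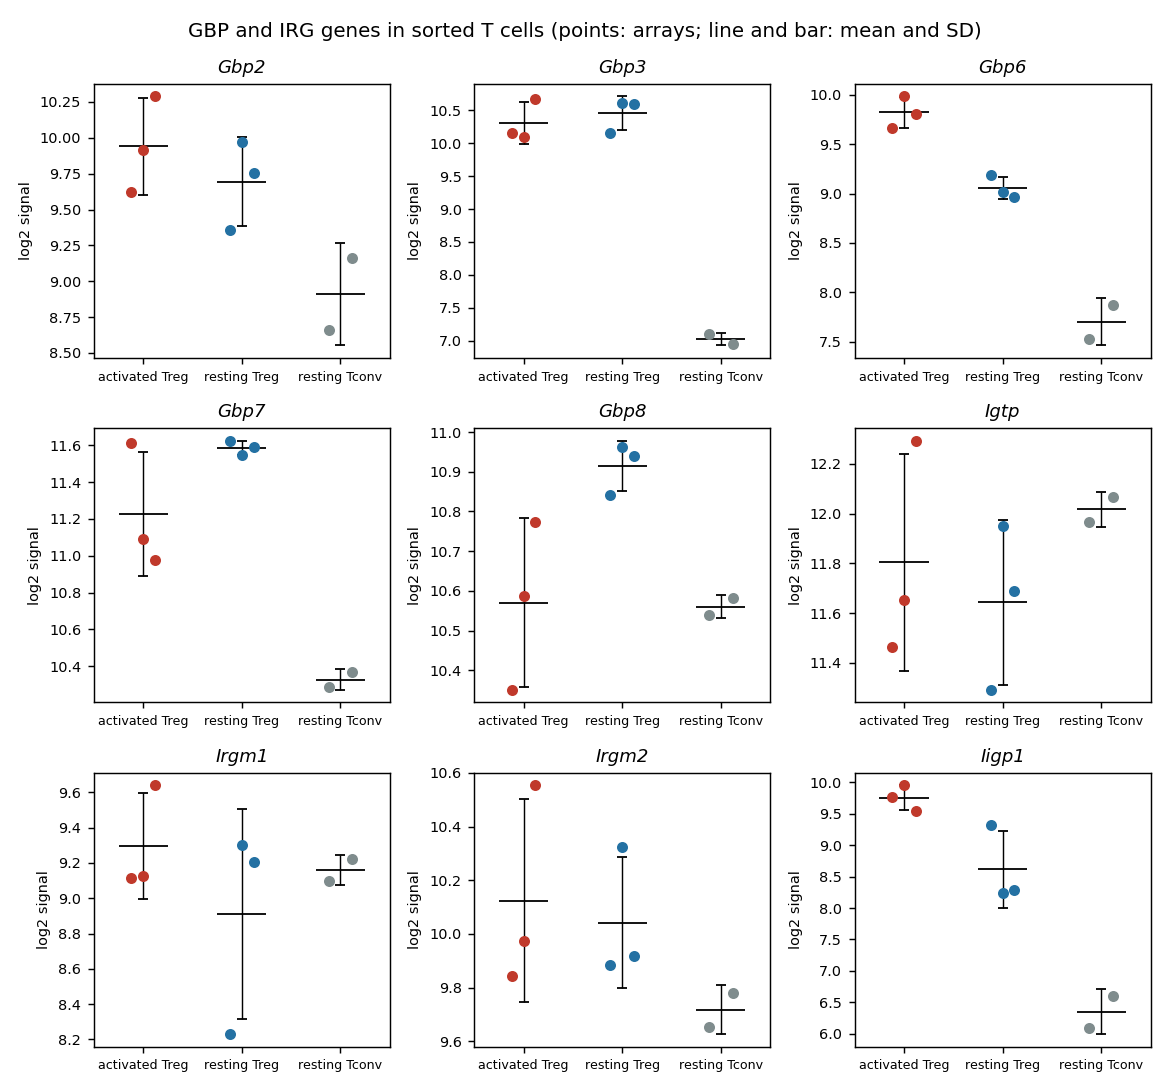
Log2 signal of 9 GBP and IRG genes on each sorted-cell array, with the 3 activated Treg, 3 resting Treg and 2 Tconv arrays from left to right. Points are arrays, and the line and bar are the mean and SD. The 2 Tconv arrays lie below all Treg arrays for Gbp2, Gbp3, Gbp6, Gbp7, Irgm2 and Iigp1, and inside the Treg range for Gbp8, Igtp and Irgm1. The scale differs between panels.

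Activated Treg were set against the same 2 Tconv arrays, so this comparison shares its controls with the one above, and activation and lineage cannot be told apart in it. The same 4 genes, Gbp3, Gbp6, Gbp7 and Iigp1, were higher in activated Treg, where 5.93% of all genes were higher and 9.7% differed in either direction. The median difference of the 9 members was 0.90 (log2), against 0.0167 for all genes. Iigp1 had 9.76, 9.95 and 9.55 in activated Treg, against the Tconv values given above, a difference of 3.40 ± 0.34 (log2, SE; limma adjusted p 0.000667). Its second probe set gave 2.43. The Gbp3 values in activated Treg were 10.16, 10.09 and 10.67, a difference of 3.28 ± 0.23 (adjusted p 0.000112).

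Gbp6 had 9.67, 9.99 and 9.81 in activated Treg, 2.12 ± 0.18 above Tconv (log2, SE; limma adjusted p 0.000271), with 1.98 from its other probe set. Gbp7 had 11.61, 11.09 and 10.98, with array 1 well above the others, and its difference was 0.90 ± 0.21 (adjusted p 0.03). The second probe set of Gbp7 gave 1.02. Gbp2 had 9.62, 9.91 and 10.29 in activated Treg, and its difference of 1.03 ± 0.27 fell just short (adjusted p 0.0517), with 0.50 from its second probe set. The other members gave 0.41 for Irgm2, 0.14 for Irgm1, 0.01 for Gbp8 and -0.21 for Igtp, none of which passed, and centring each array on its median moved Irgm1 to -0.04 and Gbp8 to -0.17. The median of all genes itself moved to -0.16 under that centring. Every activated Treg array lay above both Tconv arrays for 6 of the 9 members, against 21.4% of all genes.

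The Gbp7 call was not stable: it was lost without activated Treg array 2 (0.97, adjusted p 0.0619), resting Treg array 2 (0.90, adjusted p 0.0507), Tconv array 1 (0.86, adjusted p 0.243) or Tconv array 2 (0.94, adjusted p 0.174), and with median centring (0.72, adjusted p 0.0528) or the RNA quality class of the array, given further on, as a block (0.76, adjusted p 0.0793). Gbp2 passed without resting Treg array 1 (adjusted p 0.0439), with the signal filter (0.0496), with array weights (0.0048) and with that block (1.37, adjusted p 0.0109), and in resting Treg against Tconv it passed with array weights (0.90, adjusted p 0.0256) and with that block (0.96, adjusted p 0.0298).

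Both Treg groups were sorted through 1 gate, and setting activated against resting Treg asks what stimulation through CD3 and CD28 did to the family. In these arrays no member passed: limma called 0 of 9, against 0.742% of all genes in either direction, and 2 of 9 (Gbp6 and Iigp1) had an unadjusted p under 0.05, against 11.5% of all genes. The median difference of the members was 0.16 (log2), and that of all genes was 0.0035. Gbp6 had 9.67, 9.99 and 9.81 in activated Treg and 9.19, 9.01 and 8.97 in resting Treg, a difference of 0.77 ± 0.16 (log2, SE; limma adjusted p 0.0862). Iigp1 had 9.76, 9.95 and 9.55 in activated Treg and 9.32, 8.23 and 8.29 in resting Treg, a difference of 1.14 ± 0.30 (adjusted p 0.164). For both genes every activated array was above every resting one, as for 6.03% of all genes.

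Gbp8 ran the other way, with 10.35, 10.59 and 10.77 in activated Treg and 10.84, 10.96 and 10.94 in resting Treg, each activated array below each resting one, as for 6.94% of all genes. Its difference was -0.34, with a 95% interval of -0.69 to 0.0044. Igtp had 11.46, 11.65 and 12.29 in activated Treg against its resting Treg values above, and Irgm1 had 9.12, 9.13 and 9.64. Irgm2 had 9.84, 9.97 and 10.55 in activated Treg. For all 3 of these chromosome 11 genes, activated array 3 was the highest activated array and the groups overlapped. The differences of Igtp (0.16), Irgm1 (0.38), Irgm2 (0.08), Gbp2 (0.25), Gbp3 (-0.15) and Gbp7 (-0.36) all had 95% intervals that included 0. The second probe set of Gbp7 gave -0.04, so its value depends on the probe set.

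The 2 largest differences depended on the fit. Gbp6 passed when its 2 probe sets were averaged (0.95, adjusted p 0.0262), and Gbp6 (0.89, adjusted p 0.0301) and Iigp1 (1.43, adjusted p 0.0308) passed with array weights, as did Iigp1 without resting Treg array 1 (1.49, adjusted p 0.0405).

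RNA quality and other cells moved with some of these arrays. The signal of the 3′ probe set of Actb over its 5′ probe set, which grows as RNA is cut short, was 5.87 and 6.17 log2 units in activated Treg arrays 1 and 2 and 5.90 in resting Treg array 1, and between 1.24 and 2.67 in the other 5 arrays. Resting Treg array 1 was the highest resting array for Iigp1, Gbp6 and Gbp7 and the lowest for the other 6 members. Within the 3 arrays above 4 units the activated minus resting Treg difference was 0.64 for Gbp6 and 0.54 for Iigp1, and within the Treg arrays below 4 it was 0.82 and 1.29. Of 17 myeloid marker genes, limma called Lyz1 higher and Fcgr3 lower in activated Treg than in Tconv and Fcgr3 alone, lower, in resting Treg, and the mean log2 signal of the 17 was 5.53 to 7.14 in activated Treg, 5.29 to 6.00 in resting Treg and 5.29 to 5.30 in Tconv, highest in activated array 1. Of 7 B cell markers 2 were higher in activated Treg and 3 in resting Treg than in Tconv, and their mean was 6.29 to 7.07 in activated Treg, 6.49 to 7.18 in resting Treg and 5.69 to 5.81 in Tconv, with Cd79b 2.85 higher in resting Treg than in Tconv (log2). For 8 markers of dendritic cells and MHC class II the mean was 5.90 to 6.70, 5.84 to 7.04 and 5.25 to 5.26 in the same groups, with none of the 8 called. For 7 CD8 and NK cell markers the mean was at most 5.39 in activated Treg and 5.58 in resting Treg. In Tconv it was at least 6.39. Much of that gap lay in Klrd1, with group means of 5.34, 7.30 and 12.03 in activated Treg, resting Treg and Tconv. Klrd1 and Prf1 were called lower in activated Treg and Klrd1 in resting Treg than in Tconv. The median difference of the 7 from Tconv was -0.10 in activated Treg, with 2 of 7 above 0, and -0.39 in resting Treg. On these bulk arrays fewer cells of a type and less RNA per cell cannot be told apart, and the part of B, myeloid, dendritic, CD8 and NK cells in the Treg minus Tconv differences was not tested.

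The labelled lineage was borne out by all 6 Treg markers measured (Foxp3, Il2ra, Ctla4, Ikzf2, Tnfrsf18 and Nrp1), each higher in resting and in activated Treg than in Tconv, with Foxp3 at 10.8 ± 0.09 in activated Treg (SD, n = 3), 10.4 ± 0.14 in resting Treg (SD, n = 3) and 4.0 ± 0.07 in Tconv (SD, n = 2).

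With semaphorin-4a on the plate, GBP RNA was higher in WT Treg than with IgG1. The question here is whether the ligand changes Treg, and whether the change needs neuropilin-1 on them. The 32 arrays had been processed so that each of 16 pairs of a Sema4a-Ig and an IgG1 array had the same mean at every probe set, within 6e-05 log2 units. Only the Sema4a-Ig minus IgG1 differences within pairs therefore carry information, so KO cannot be set against WT by level, and the Nrp1 signal gives no check of the genotypes. In KO, limma called 0 of 8 measured members, against 0.0% of all genes, with 3 of 8 (Gbp3, Gbp7 and Irgm2) at an unadjusted p under 0.05 against 10.5% of all genes. In WT, 6 of 8 members rose with Sema4a-Ig, where 2.91% of all genes rose and 5.79% changed in either direction. The median difference of the members was 0.19 in KO and 0.42 in WT (log2), against -0.0158 and -0.0141 for all genes.

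In WT, Gbp8 had the largest difference of the 8 measured members. In KO its pair differences were -0.35, 0.25 and 0.79 as the lowest, median and highest of 8 pairs, and in WT they were 0.29, 0.87 and 1.78. All 8 WT pairs were above 0, 7 of 8 KO pairs were, and the 2 genotypes overlapped. The mean difference was 0.24 ± 0.14 (log2, SE; limma adjusted p 0.545) in KO and 0.99 ± 0.14 in WT, or 1.99-fold, with an adjusted p of 0.000546 and rank 6 of 17097 genes by size. In WT its level was 8.03 ± 0.28 with Sema4a-Ig and 7.04 ± 0.28 with IgG1 (SD, n = 8 each), the equal SDs being a consequence of the fixed pair means.

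In WT the 3 members of the chromosome 3 cluster came next in size. Gbp3 differed by -0.0008 at the lowest, 0.26 at the median and 0.78 at the highest of the KO pairs, and by 0.30, 0.64 and 1.23 in the WT pairs. Its mean difference was 0.29 ± 0.10 (log2, SE; limma adjusted p 0.383) in KO and 0.70 ± 0.10 (adjusted p 0.000392) in WT. Gbp7 differed by 0.07, 0.23 and 0.45 in KO pairs and by 0.11, 0.55 and 1.19 in WT pairs, so that it was higher with Sema4a-Ig in every pair of both genotypes. Its means were 0.26 ± 0.10 (adjusted p 0.434) in KO and 0.66 ± 0.10 (adjusted p 0.000958) in WT, and in KO it was the only member higher in 8 of 8 pairs, against 0.988% of all genes. For Gbp2 the KO pairs ran from -0.19 over a median of 0.13 to 0.51, and the WT pairs from 0.13 over 0.43 to 1.00, with means of 0.14 ± 0.09 in KO (adjusted p 0.59) and 0.45 ± 0.09 in WT (adjusted p 0.00888). The second probe set of Gbp7 gave 0.21 in KO and 0.68 in WT, and that of Gbp2 gave 0.10 in KO and 0.43 in WT. For both genes this second probe set is the counterpart of the one used on sorted cells.

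Of the regulatory IRGs, Irgm2 and Igtp rose in WT and Irgm1 did not pass. Irgm2 differed by -0.36, 0.24 and 0.91 at the lowest, median and highest of the KO pairs and by 0.03, 0.34 and 0.84 in WT, with means of 0.26 ± 0.11 (log2, SE; limma adjusted p 0.452) in KO and 0.39 ± 0.11 (adjusted p 0.039) in WT. Igtp differed by -0.03, 0.07 and 0.29 in KO pairs and by 0.03, 0.23 and 0.62 in WT pairs, with means of 0.10 ± 0.07 (adjusted p 0.641) in KO and 0.28 ± 0.07 (adjusted p 0.0309) in WT. Irgm1, which protects the cell's own membranes and mature vacuoles in mouse cells, differed by -0.34, 0.07 and 0.22 in KO and by -0.04, 0.10 and 0.61 in WT, with means of 0.0009 ± 0.08 and 0.20 ± 0.08, and it passed in neither (adjusted p 0.999 in KO and 0.155 in WT).

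The effector Iigp1 differed by -0.38, 0.09 and 0.31 at the lowest, median and highest of the KO pairs and by -0.13, 0.20 and 0.74 in WT. Its means of 0.06 ± 0.09 in KO and 0.28 ± 0.09 in WT did not pass (limma adjusted p 0.851 in KO and 0.0824 in WT). Gbp2, Gbp3, Gbp7, Gbp8, Igtp and Irgm2 were higher with Sema4a-Ig in 8 of 8 WT pairs, as were 3.03% of all genes. All 8 members had a mean difference above 0 in both genotypes, against 45.0% of all genes in KO and 46.1% in WT.

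The members' differences tended to be large or small in the same pairs. Over the 8 members, the median difference was 0.68, 0.84 and 0.56 in WT pairs 1, 3 and 7, and 0.14 and 0.08 in WT pairs 4 and 5. Among KO pairs it was highest in pair 3 (0.48) and pair 4 (0.39) and lowest in pair 1 (-0.15). The spread of the differences over all genes was also widest in WT pair 3 (SD 0.498), KO pair 3 (0.467) and WT pair 1 (0.443), and its part in the members' values was not tested. As a description, the 28 correlations between 2 members over the 16 pair differences, each centred on its genotype's mean, had Pearson r from 0.17 (Gbp3 with Irgm1) to 0.86 (Gbp8 with Irgm2), with a median of 0.60. Over the 8 sorted arrays the 36 such correlations ran from -0.63 (Gbp7 with Igtp) to 0.98 (Gbp6 with Iigp1). The points of each set share arrays and processing.

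**Figure D3:**
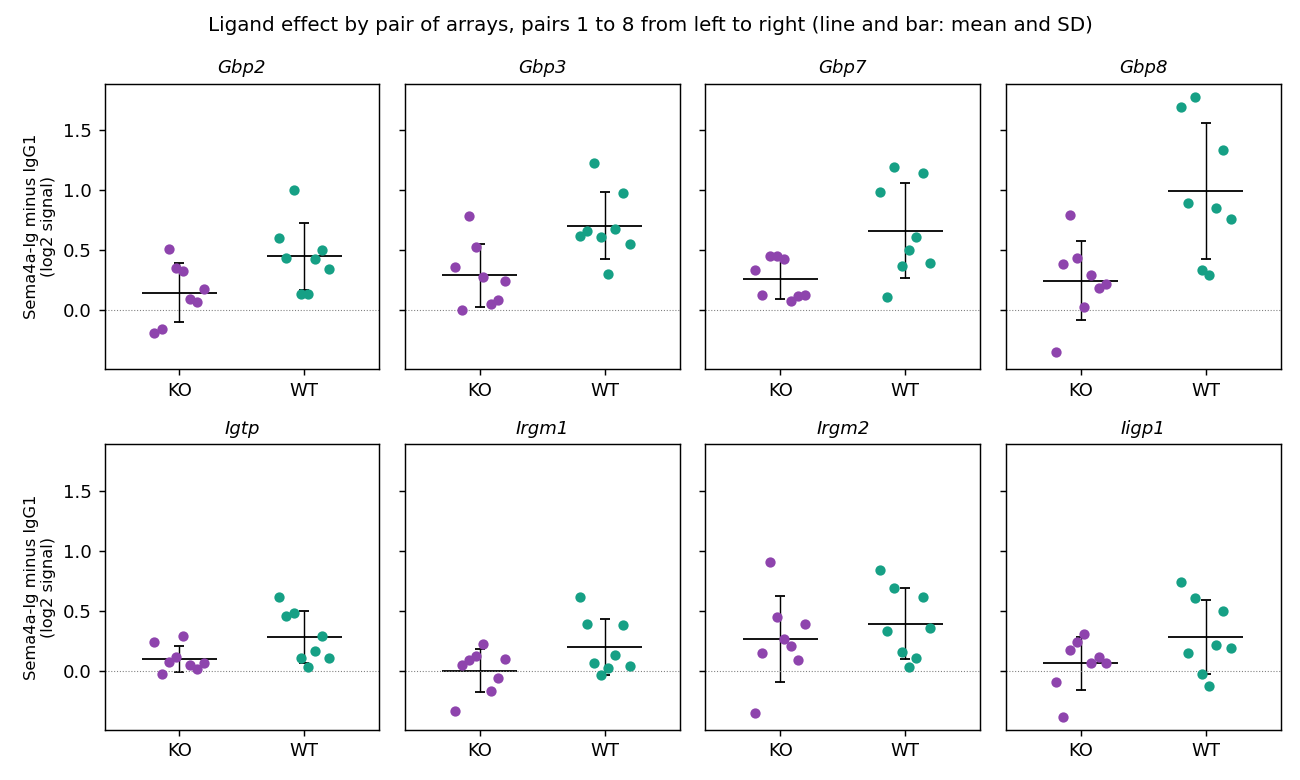
Sema4a-Ig minus IgG1 difference in log2 signal for 8 GBP and IRG genes, with 1 point per pair of arrays, 8 pairs in KO on the left and 8 in WT on the right of each panel. The line and bar are the mean and SD, and the dotted line is 0. For Gbp8 the WT points run from 0.29 to 1.78 and the KO points from -0.35 to 0.79.

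Some calls depended on single pairs. Leaving out 1 WT pair at a time left 4 to 7 of the 8 members called: Igtp was lost without WT pair 1 (adjusted p 0.0839), 2 (0.0678), 3 (0.109) or 7 (0.0707), Irgm2 without pair 1 (0.111), 2 (0.0625), 3 (0.134), 7 (0.105) or 8 (0.0623), and Iigp1 passed without pair 5 (0.0442). Iigp1 also passed in WT when only genes with a mean log2 signal of at least 4 were tested (adjusted p 0.0469) and with an intensity trend in the variance (adjusted p 0.0246). WT pair 2 holds the array whose title says WT and whose genotype label says Nrp fl/fl, and without it Gbp2, Gbp3, Gbp7 and Gbp8 passed.

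Markers of other cells and of Treg moved as well. In KO 7 of 17 myeloid markers were higher on average with Sema4a-Ig and none passed the test. In WT 13 of 17 were higher and 3 rose, namely Lyz2 by 0.81, Tyrobp by 0.39 and Ctss by 0.37 (log2). The KO means of these 3 were 0.25, 0.36 and 0.16, with Ctss higher in 8 of 8 KO pairs. In the sorted cells Ctss was as high in Tconv (12.72) as in activated (12.59) and resting Treg (12.67), so it does not set myeloid cells apart. The mean log2 signal of the 17 was 4.78 to 5.06 with Sema4a-Ig and 4.71 to 4.98 with IgG1 in KO. In WT it was 4.78 to 5.14 with Sema4a-Ig and 4.63 to 4.98 with IgG1. The mean myeloid difference was highest in WT pairs 7 (0.51), 3 (0.39) and 8 (0.38) and lowest in pairs 4 (-0.20) and 5 (-0.08). With that difference as a covariate in limma, Gbp3 and Gbp8 still passed in WT. Gbp7 (0.54, adjusted p 0.0543), Gbp2 (0.33, adjusted p 0.201), Irgm2 (0.29, adjusted p 0.344) and Igtp (0.24, adjusted p 0.275) did not. The WT median of the members was 0.31, against 0.42 without the covariate. The share of all genes that passed with it is not given here, so the lost calls are not shown to be particular to the members. Some of the 17 markers had very low signals, such as Itgam (group means 2.68 to 2.76) and Elane (2.71 to 2.85). Foxp3 had a low signal on this array type, with group means from 3.48 to 3.61, so it does not identify the cells here, whereas the 6 Treg markers together averaged 9.14 to 9.38. None of the 6 Treg markers and none of 7 B cell markers passed in KO, where no gene at all passed. In WT the Treg markers Nrp1 (by 0.37) and Ikzf2 (by 0.29) and the B cell marker Cd79b (by 0.35) rose. The KO means of these genes were 0.34 for Nrp1, higher in 8 of 8 pairs, 0.07 for Ikzf2 and 0.09 for Cd79b. The rise of Nrp1 was thus of like size in both genotypes. The part of B cells in the members' differences was not tested.

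Whether the ligand's effect depends on Nrp1 was tested as the KO minus WT difference of the pair differences. It was negative for all 8 members, with a median of -0.26 (log2), against 0.0019 for all genes. None passed: limma called 0 of 8, against 0.0% of all genes, and 4 of 8 (Gbp8, Gbp3, Gbp7 and Gbp2) had an unadjusted p under 0.05, against 5.94% of all genes. Gbp8 had a difference of -0.75 ± 0.20 (SE), with a 95% interval of -1.17 to -0.33 and an adjusted p of 0.642, and it ranked 5 of 17097 genes by size. Gbp3 (-0.41, interval -0.70 to -0.13), Gbp7 (-0.40, interval -0.71 to -0.10) and Gbp2 (-0.30, interval -0.58 to -0.03) had adjusted p-values of 0.748, 0.791 and 0.83. Iigp1 (-0.22), Irgm1 (-0.20), Igtp (-0.18) and Irgm2 (-0.13) had intervals that included 0. A member called in WT and not in KO is thus not shown to differ between the genotypes.

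**Figure D4:**
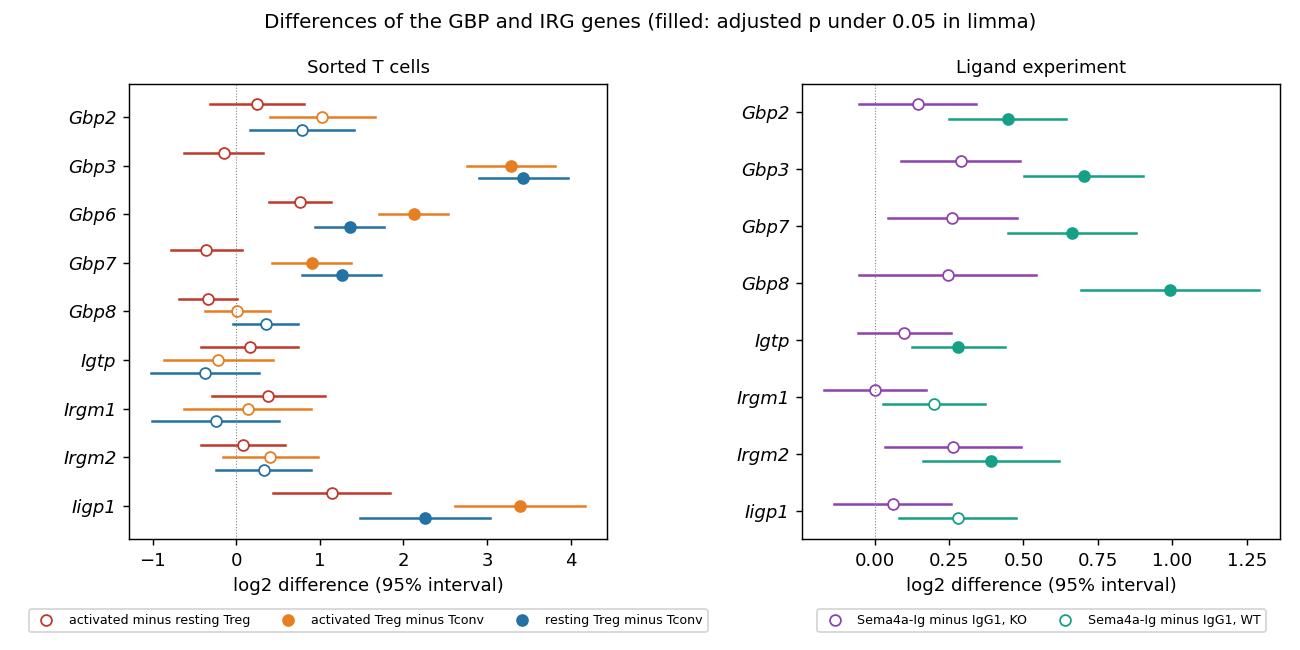
Differences of the GBP and IRG genes in log2 signal with 95% intervals from limma, for 9 genes and 3 comparisons of sorted cells on the left, and for 8 genes and Sema4a-Ig minus IgG1 in KO and WT on the right. Filled points have an adjusted p under 0.05. Gbp3 and Iigp1 have the largest differences from Tconv on the left, and Gbp8 in WT has the largest on the right.

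Gbp8 and Gbp3 thus stood at different places in the 2 experiments. Gbp8 had the largest ligand difference in WT (0.99) and differences from Tconv of 0.01 in activated Treg and 0.35 in resting Treg that did not pass. Gbp3 had differences from Tconv of 3.28 and 3.44 in those groups and the second largest ligand difference in WT among the 8 members. Igtp rose with Sema4a-Ig in WT and did not pass in any comparison of sorted cells. The experiments used different array types and were not compared by test.

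The other measured genes of the families, listed with earlier results known, were counted in the same way. In the sorted cells 4 of 11 were measured. Of all genes 5.93% were higher in activated Treg and 3.86% in resting Treg than in Tconv. Gbp2b, a neighbour of Gbp2 on chromosome 3, was 2.56 ± 0.55 higher in activated Treg and 2.57 ± 0.55 higher in resting Treg than in Tconv (log2, SE, limma adjusted p 0.0237 and 0.0352). Its 2 Tconv arrays lay far apart, at 7.13 and 5.41. Gm4951, another IRG gene, was 1.39 ± 0.36 higher in activated Treg (adjusted p 0.0483). Its signals were low, with 6.16, 5.37 and 4.73 in activated Treg and 4.11 and 3.94 in Tconv. Activated arrays 1 and 2, its highest, were those with the Actb signal above 4 units. In the ligand experiment 6 of 11 were measured and none passed in KO. In WT, where 2.91% of all genes rose, 4 rose: Gbp2b by 0.81, Gbp10 by 0.46, Tgtp1 by 0.40 and Ifi47 by 0.33. Gbp10 is read there by the probe sets named Gbp6 on the other array type.

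The interferon gamma pathway did not move as a block with the GTPases. Ifng, the gene of interferon gamma itself, had 5.65, 5.82 and 6.08 in activated Treg, 4.98, 4.69 and 7.71 in resting Treg and 3.74 and 3.81 in Tconv, and its differences of 2.07 and 2.01 from Tconv did not pass (adjusted p 0.156 and 0.21). Resting Treg array 3 alone was far above the other resting arrays. Irf1, a factor that interferon gamma induces and that binds ISRE-like elements, had 10.38, 10.26 and 10.89 in activated Treg, 10.22, 10.61 and 10.59 in resting Treg and 10.83 and 10.84 in Tconv, and passed in no comparison of sorted cells.

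With Sema4a-Ig, Ifng differed by -2.60, -0.70 and 0.02 at the lowest, median and highest of the KO pairs and by -1.95, -0.64 and -0.06 in WT. Its mean was -0.93 ± 0.22 in KO (log2, SE; limma adjusted p 0.376), and in WT it fell by 0.85 ± 0.22 (adjusted p 0.029), in 8 of 8 pairs. In WT, then, Ifng and the GBP genes moved in opposite directions. The means had the same signs in KO, with Ifng lower in 7 of 8 pairs and all 8 members above 0, but none of these passed there. Irf1 differed by 0.02 in KO and 0.25 in WT, neither of which passed (adjusted p 0.961 and 0.106).

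Of 28 genes listed for the interferon gamma pathway, 26 were measured in sorted cells and 24 in the ligand experiment. In activated Treg against Tconv, where 9.7% of all genes were called, 3 were higher and 5 were lower. Among the higher was Cd274 (1.02), the gene of the ligand PD-L1. Among the lower were the signalling inhibitors Pias1 (-1.61), Socs3 (-1.38) and Socs1 (-1.07). In resting Treg against Tconv, where 5.51% of all genes were called, 3 were higher, Icam1 (2.03), Cxcl10 (1.99) and Cd274 (0.94). There 4 were lower, Pias1 (-1.54), Socs1 (-1.09), Socs3 (-1.08) and Irf2 (-1.01). Between activated and resting Treg none passed, with 2 of 26 at an unadjusted p under 0.05.

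With Sema4a-Ig none of the 24 passed in KO. In WT 5 rose: the receptor chain Ifngr1 by 0.64, Socs3 by 0.60, the MHC class I activator Nlrc5 by 0.33, Irf2 by 0.30 and Pias1 by 0.29. There 2 fell, Ifng and the factor Irf8 (by 0.92). Of all genes 5.79% were called in WT. The median of the list was 0.02 in KO and 0.19 in WT. Of 7 genes of the type I interferon receptor and its factors, none passed in KO, and Irf7 (0.55) and Ifnar1 (0.31) rose in WT.

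Genes whose pattern was most like the mean of the members, by Pearson correlation and as a description only, were Ifi203 (0.93), Tapbp (0.93), Resf1 (0.91), Smad4 (0.91) and Cds2 (0.90) over the 16 centred pair differences. Ifi203 is an interferon-inducible gene and Tapbp encodes tapasin, which loads peptides onto MHC class I. Over the 8 sorted arrays they were Cd200, Sla, Rap1a, Slc35d1 and D630039A03Rik, each at 0.99, and with 8 arrays in 3 groups many genes can reach such a value.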

How the data were processed

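RNA levels were read from 40 Affymetrix arrays of 2 types, analysed apart: 8 arrays of sorted cells and 32 of the ligand experiment. The values deposited by the authors are log2 signals per probe set, made with RMA and Partek 6.6 per the submitters' processing notes; other steps, including the one that set all pair means equal, are not given in these sources. RMA evens out arrays on the log2 scale, so a shift common to all genes cannot be seen. Arrays give no read depth, and their number limits the precision.

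Gene names are those of the platform annotation, updated by Entrez identifier against a RefSeq table (GRCm38.p6). Of 45101 probe sets of the sorted-cell arrays 35890 were named, 932 with several genes, and of 45141 of the ligand arrays 29449 were named, 551 with several. Probe sets without a name or with several names were left out, and each gene kept the probe set of highest mean. Genes were tested with limma 3.58.1 in R 4.3.3 (lmFit and eBayes, two-sided), with Benjamini-Hochberg adjustment over all genes and a threshold of 0.05: 1 fit of 3 group means over 8 arrays (5 residual degrees of freedom), and 1 fit of a mean per genotype over 16 pair differences (14 residual degrees of freedom). Pairs are a Sema4a-Ig and an IgG1 array of 1 genotype with neighbouring title codes, and the equal pair means in the values show the same pairing. The designed fit took pairs as a block; the fit without it is given as an alternative. Samples were grouped by their titles.

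The members and all lists were chosen with earlier results of these data known. All members are named, and of the lists those that passed, at most 6 a list, with Ifng and Irf1 in each comparison; 1 further gene of that rule is not reported here. The scripts were tested on simulated data. Alternatives covered a signal filter at a log2 mean of 4, the mean over probe sets, median centring, an intensity trend, array weights, RNA quality, myeloid markers and leaving out arrays or pairs. The labels' bone marrow source of the sorted cells was not used.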

Additional observations from a re-analysis of the deposited data

How the results depend on the processing

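Counts of called members stayed within 1.5 times of those reported under the other settings, except as follows. For activated minus resting Treg, where no member was called, the mean over a gene's probe sets called 1, array weights called 2 and leaving out an array in turn called 0 to 1. For activated Treg minus Tconv leaving out an array called 3 to 5, and for resting Treg minus Tconv 1 to 4, with 1 without Tconv array 1. For Sema4a-Ig in WT the myeloid covariate left 2, and leaving out a pair 4 to 7; leaving out pairs called 0 in KO and 0 for the KO minus WT difference. The fit without the replicate block, which takes the 32 arrays as unpaired and understates the errors, called 3 members in KO, 8 in WT and 3 (Gbp3, Gbp7 and Gbp8) for the KO minus WT difference. Signs turned only for members not called. With the Actb 3′ minus 5′ class as a block, and with only the arrays below 4, activated minus resting Treg was 0.0131 and 0.0593 for Gbp3, activated Treg minus Tconv was 0.2073 and 0.2764 for Igtp, and resting Treg minus Tconv was 0.0109 and 0.0954 for Irgm1. Array weights gave -0.0745 for Igtp and -0.1397 for Irgm2 in activated minus resting Treg. Median centring gave -0.1652 for Gbp8 and -0.0402 for Irgm1 in activated Treg minus Tconv. Leaving out an array gave -0.0914 to 0.1201 for Gbp8 and -0.0381 to 0.2241 for Irgm1 in activated Treg minus Tconv, -0.0846 to 0.3301 for Igtp and -0.1335 to 0.2229 for Irgm2 in activated minus resting Treg, -0.4423 to 0.0954 for Irgm1 in resting Treg minus Tconv, and -0.0304 to 0.0491 for Irgm1 with Sema4a-Ig in KO. The cause of these changes was not tested. How many of all genes passed under each setting is not given here. A lost or gained call is therefore not shown to be particular to the members.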

Other observations

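Autophagy genes, whose products act with GBPs and IRGs at vacuoles in mouse cells, gave 2 calls among 13 in each comparison of Treg with Tconv, where 9.7% of all genes were called for activated and 5.51% for resting Treg. Gabarapl1 was higher by 2.05 in activated Treg and by 2.17 in resting Treg than in Tconv, and Map1lc3a was lower (-1.17 and -1.25, log2), each with a limma adjusted p under 0.05. None of the 13 passed between activated and resting Treg (1 at an unadjusted p under 0.05). Of 11 measured in the ligand experiment none passed in KO or WT, and none had an unadjusted p under 0.05. The 7 type I interferon genes split in sorted cells: Ifnar2 (0.99) and Tyk2 (0.68) were higher and Irf7 (-1.21) was lower in activated Treg than in Tconv, and none passed in resting Treg against Tconv. Irf7 thus lay below Tconv in activated Treg on 1 array type and rose with Sema4a-Ig in WT on the other.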
